A study of Mus musculus with 8 samples.

Results

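The genes described here make cholesterol and fatty acids or control their amounts: enzymes of the mevalonate and sterol pathway, the SREBP control system, sterol transport and esterification, LXR receptors with their export pumps, and fatty acid synthesis. They were chosen by name from a list of 43 symbols, of which 42 were found among the 22609 gene rows. The remaining symbol, Msmo1, is the current name of Sc4mol, which was found, so the list holds 42 genes and all are accounted for. In 37 of them the reads sufficed for testing, among 10073 genes tested in all, and the other 5 (Hmgcs1, Abca1, Nr1h3, Scd1 and Fads2) are given as levels.

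The RNA came from CD8 T cells of the livers of male C57BL/6J mice, 6 weeks old, that were given an αCD137 antibody, an agonist of a T cell costimulatory receptor, on day 0, 3 and 6, with livers taken on day 8. The sort took live cells that were CD45+, TCRβ+ and CD8α+, lacked MHCII, NK1.1 and CD4, and were KLRG1+CD127-, and these were divided by surface CD11c into CD11c+ cells (4 libraries) and CD11c- cells (4 libraries). Both subsets therefore share the strain, the antibody and the effector gate, and no untreated mice are among these samples. Libraries are numbered 1 to 4 within a subset, and no label tells whether different mice stand behind them. The p-values therefore rest on library-to-library spread that may be technical. They take the libraries as unpaired, and a fit with the replicate number as a block is given at the end. The comparison asks whether CD11c+ effector cells differ from CD11c- cells of the same gate in their lipid synthesis and export transcripts.

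Cells build cholesterol from acetyl-CoA through mevalonate, farnesyl diphosphate and squalene. When sterols in the endoplasmic reticulum run low, SCAP escorts the SREBP transcription factors to the Golgi, where they are cut and released to switch on sterol and fatty acid genes, while INSIG proteins hold SCAP back when sterols are plentiful. Oxysterols activate the LXR receptors, which turn on the export pumps ABCA1 and ABCG1. Activated and dividing T cells are known to raise SREBP-driven synthesis, which supplies membrane for new cells.

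Libraries held 5090345 to 7093163 gene reads and 10482 to 12581 detected genes, the fewest in CD11c+ replicate 1. Itgax, which encodes CD11c, was at 198 to 357 CPM (counts per 1000000 gene reads, scaled by TMM factors) in CD11c+ libraries and at 4.75 to 17.9 CPM in CD11c- libraries, with no overlap. The T cell genes Cd3e (864 to 1019.7 CPM) and Cd8a (1020.5 to 1235 CPM) were high in all 8 libraries. Of markers of other liver cells, 17 hepatocyte genes summed to 0.195 to 41.6 CPM in CD11c+ and 2.04 to 50.5 CPM in CD11c- libraries, with Cps1 at 0 in all. A set of 13 Kupffer cell and monocyte genes summed to 28.9 to 295 CPM and 36.5 to 149.7 CPM, most of it Lyz2, with Cd163 at 0. The sums of 7 neutrophil genes (2.27 to 308 CPM in CD11c+ and 8.39 to 129 CPM in CD11c- libraries) were highest in CD11c+ replicate 3. The sums of 7 dendritic cell genes other than Itgax were 4.36 to 14.6 CPM in CD11c+ and 0 to 4.57 CPM in CD11c- libraries. Sums of 6 B cell genes (9.56 to 13.5 CPM in CD11c+ and 6.57 to 14.8 CPM in CD11c- libraries) and of 10 endothelial and stellate cell genes (0 to 1.40 CPM in both) were low. The 20 genes of the G2 and M phases all had positive log2 fold changes (CD11c+ minus CD11c-), where 48.3% of all tested genes were below 0. By edgeR 6 of them had an unadjusted p under 0.05, all higher in CD11c+, beside 2.43% of all tested genes. At an adjusted p under 0.05 there were 0. Their sums of 5666 to 6063 CPM in CD11c+ libraries lay above the 4623 to 5437 CPM of CD11c- libraries. The part of other cells' transcripts, or of this cell cycle difference, in the values below was not tested. In such pooled cells, fewer cells using a gene and less RNA per cell cannot be told apart.

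No lipid synthesis gene passed the test between subsets. By edgeR's quasi-likelihood test with Benjamini-Hochberg adjustment over all 10073 genes, 0 of the 37 tested members had an adjusted p under 0.05, where 0.0496% of all tested genes (5) did (0.0298% higher and 0.0199% lower in CD11c+), and the members' adjusted p ran from 0.991 to 0.999. At an unadjusted p under 0.05 there were 3 of 37 members, against 4.70% of all tested genes (2.43% higher and 2.26% lower in CD11c+), and these were Nsdhl and Abcg1 with negative and Scap with a positive log2 fold change. DESeq2 and limma voom also called 0 of 37, where they called 0.288% and 0.189% of all tested genes. Log2 fold changes (CD11c+ minus CD11c-) were negative for 23 and positive for 14 of the members, with a median of -0.10, beside a median of 0.01 over all tested genes and 48.3% of all tested genes below 0. The 95% interval of the difference lay within 2-fold either way for 29 of the 37, and within 1.5-fold for 10. The 8 whose intervals reached past 2-fold were Mvk, Idi1, Nsdhl, Hsd17b7, Tm7sf2, Insig2, Acaca and Elovl6, in which a difference of more than 2-fold lies within the interval. For Nsdhl the coefficient of variation between replicates was 36.2% in CD11c+ and 25.8% in CD11c- cells, where counting error alone, at its mean of 183 reads, gives 7.39%. For Idi1, with a mean of 18.2 reads, it was 50.5% in CD11c+ and 28.2% in CD11c- cells, where counting error gives 23.4%.

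**Figure D1:**
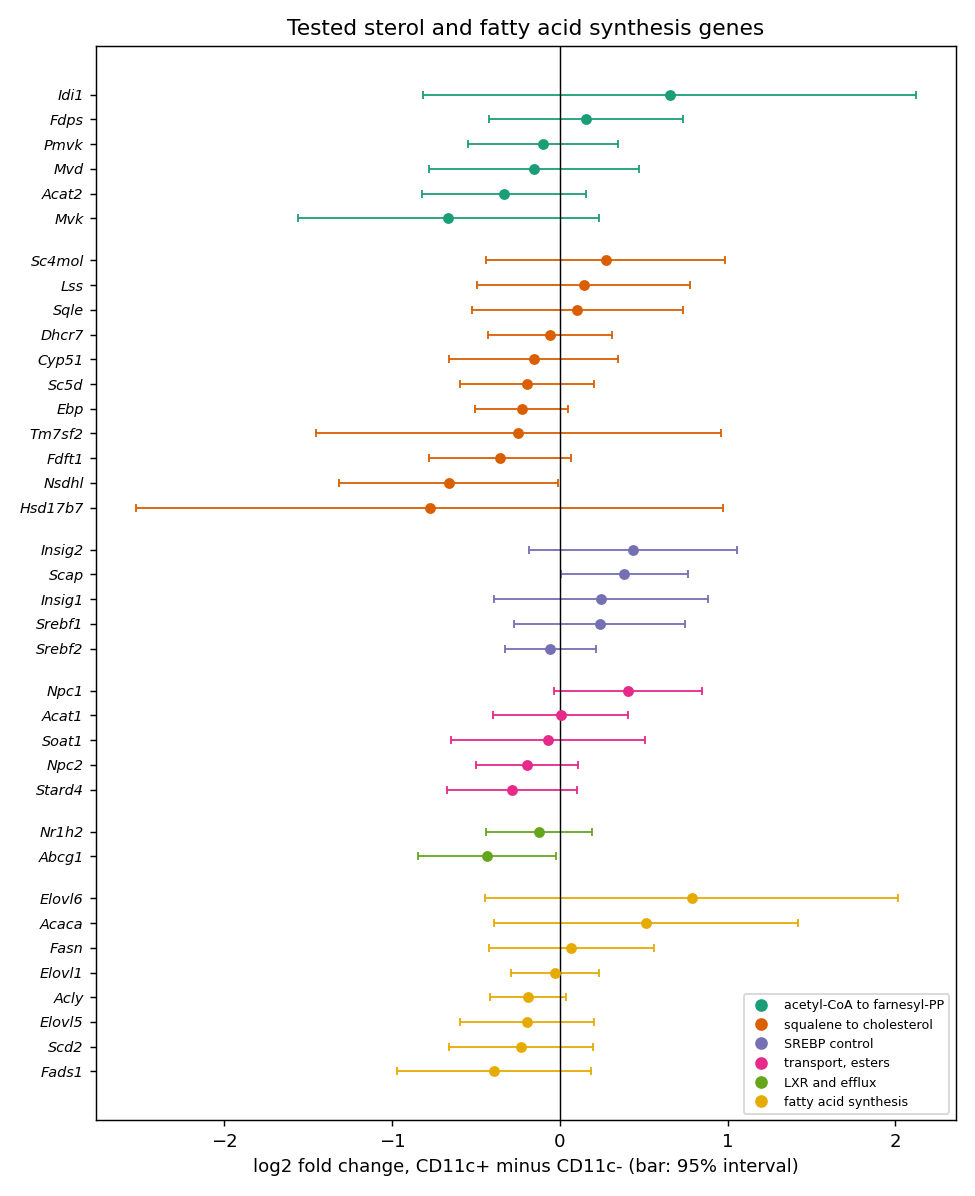
Log2 fold change of each of the 37 tested genes, CD11c+ minus CD11c- (points), with its 95% interval (bars), grouped by role and coloured by group, with the gene symbols on the vertical axis. The intervals of Nsdhl, Abcg1 and Scap end just short of 0, and all others cross it.

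Per kilobase of merged exons, the most abundant member transcripts over the 8 libraries were Acly (80.4 CPM per kb), Elovl1 (71.7), Ebp (63.9), Npc2 (54.3) and Elovl5 (53.8). At the low end of the tested members stood Acaca (0.502 CPM per kb), Idi1 (0.879) and Elovl6 (1.29). Exon lengths came from GENCODE M21 on GRCm38, while the reads were counted on mm9 with an annotation not given in the sources used here, so this order is approximate. Reads that align to more than 1 place were not assigned to genes. Gapdh, an abundant glycolytic enzyme with many processed pseudogenes, had only 47 to 109 reads per library. Levels of genes with close copies are therefore uncertain. Copies were sought by the share of a gene's 50-base stretches that also occur in transcripts of other genes. It was highest for Acat2 (39.1%, shared with Acat3) and Acaca (30.4%, mostly with the gene model Gm5182). Idi1 had 25.3%, mostly with Gm13502. Fdft1 (26.5%) shared mostly with the overlapping gene Ctsb on the opposite strand, and Fdps (26.2%) with the overlapping gene model Gm43738. Overlap does not by itself make a read align to more than 1 place, so these shares do not show close copies. Whether such reads were counted for either of the overlapping genes or for neither was not tested.

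The first steps, from acetyl-CoA to farnesyl diphosphate, showed no gene past the test among 6 tested, with 4 negative and 2 positive log2 fold changes. Acat2, the cytosolic thiolase that joins acetyl-CoA units, was at 22.8, 25.4, 22.6 and 25.4 CPM in CD11c+ replicates 1 to 4, against 36.0, 31.2, 27.4 and 26.6 CPM in CD11c- replicates 1 to 4. The CD11c+ libraries all lay below the CD11c- libraries. This separation was shared by 3.44% of all tested genes in either direction, 1.60% with CD11c+ higher and 1.85% with CD11c+ lower, and by 2 of the 37 members, the other being Ebp. The log2 fold change of Acat2 was -0.33 (SE 0.23, edgeR adjusted p = 0.991). Pmvk, phosphomevalonate kinase, was at 47.0, 41.8, 38.6 and 55.1 CPM in CD11c+ libraries and 42.6, 57.5, 41.1 and 54.3 CPM in CD11c- libraries, and the ranges overlapped throughout. Mvd, which decarboxylates mevalonate diphosphate, was at 16.8, 34.3, 41.8 and 49.8 CPM in CD11c+ libraries, against a narrow 38.5 to 41.1 CPM in CD11c- libraries. Only CD11c+ replicate 1 was far below the rest, and without it the log2 fold change of Mvd was 0.080 in place of -0.15. Mvk, mevalonate kinase, was at 4.68 to 13.8 CPM in CD11c+ and 11.6 to 17.8 CPM in CD11c- libraries, and all 4 CD11c+ libraries lay below the CD11c- mean (log2 fold change -0.67, SE 0.41). Fdps, farnesyl diphosphate synthase, averaged 28.4 ± 6.86 and 25.5 ± 5.06 CPM (SD, n = 4 each), and Idi1, the isopentenyl diphosphate isomerase, 3.77 ± 1.91 and 2.39 ± 0.674 CPM, in CD11c+ and CD11c- cells.

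Hmgcs1, which makes HMG-CoA, had 0 reads in all 8 libraries. A count of 0 allows a level of up to 0.419 to 0.585 CPM per library at 3 reads, by counting error only. Of the 50-base stretches of Hmgcs1, 11.6% occur in transcripts of other genes in GENCODE M21. Whether the annotation behind the counts could record this gene was not tested.

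From squalene to cholesterol, 8 of 11 tested genes had negative log2 fold changes and none passed the test. Nsdhl, which removes the C4 carboxyl group of sterol intermediates, was at 13.7, 21.8, 26.5 and 34.5 CPM in CD11c+ replicates 1 to 4, against 52.3, 38.2, 31.7 and 31.0 CPM in CD11c- replicates 1 to 4. All 4 CD11c+ libraries were under the CD11c- mean, yet CD11c+ replicate 4 was above 2 of the CD11c- libraries, so the subsets overlapped. Its log2 fold change was -0.66 (SE 0.30, 95% interval -1.32 to -0.01, unadjusted p = 0.0476, edgeR adjusted p = 0.991), and -0.15 without the 3 libraries of fewest detected genes, CD11c+ replicates 1 and 2 and CD11c- replicate 1. Ebp, the sterol isomerase that acts later in the pathway, was at 117, 139, 150.5 and 138 CPM in CD11c+ libraries, against 165, 151, 151 and 169.5 CPM in CD11c- libraries. The subsets did not overlap, but the highest CD11c+ and the lowest CD11c- library were nearly level, and the log2 fold change was -0.23 (SE 0.13, edgeR adjusted p = 0.991), or -0.13 without the same 3 libraries. Fdft1, squalene synthase, was at 32.8 to 48.9 CPM in CD11c+ and 46.8 to 53.7 CPM in CD11c- libraries (log2 fold change -0.36, SE 0.20, edgeR adjusted p = 0.991). Sc5d, the lathosterol desaturase, was at 79.8, 62.4, 59.9 and 70.8 CPM in CD11c+ libraries and 97.7, 66.4, 81.7 and 66.5 CPM in CD11c- libraries. Cyp51, the lanosterol demethylase, averaged 64.5 ± 14.4 and 71.7 ± 21.3 CPM, and Dhcr7, which makes cholesterol from its last precursor in one branch, 64.5 ± 8.41 and 67.3 ± 6.19 CPM, in CD11c+ and CD11c- cells (SD, n = 4 each). Lss, which closes the sterol rings, averaged 30.3 ± 9.72 and 27.4 ± 7.01 CPM. Hsd17b7 (5.84 ± 4.54 and 10.1 ± 2.40 CPM), a sterol ketone reductase, had 0 reads in CD11c+ replicate 1 and 33 to 77 in every other library. Tm7sf2, the sterol C14 reductase, averaged 5.32 ± 2.31 and 6.32 ± 1.05 CPM.

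Sqle and Sc4mol varied more between replicates than between subsets. Sqle, squalene epoxidase, was at 111, 58.0, 38.8 and 65.4 CPM in CD11c+ replicates 1 to 4, and at 85.3, 63.9, 55.4 and 49.2 CPM in CD11c- replicates 1 to 4. Sc4mol, the sterol C4 methyl oxidase, was at 74.7, 39.0, 30.1 and 27.1 CPM in CD11c+ libraries and at 48.0, 32.9, 35.7 and 24.8 CPM in CD11c- libraries. Both genes were highest in replicate 1 of each subset. Altogether 5 of the 37 tested members (Sc5d, Sqle, Sc4mol, Npc1 and Fads1) were highest in replicate 1 of both subsets, 2 in replicate 2, 4 in replicate 3 and 1 in replicate 4. The same count was not made over all tested genes, so it shows no replicate pattern particular to the members. Over the members, deviations of same-numbered libraries from their subset means correlated at -0.221 to -0.0172. Over all 10073 tested genes these correlations were 0.0964 to 0.1897, against at most 0.0276 for libraries of unlike number. The few members therefore do not decide whether the numbers are paired. For Sqle and Sc4mol the differences between subsets were small beside the spread between replicates, with log2 fold changes of 0.10 (SE 0.29) and 0.27 (SE 0.33).

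CD11c+ replicate 1 held the lowest value of 13 of the 37 members, the most of any library, and the highest value of 4. Among mevalonate and sterol genes it was lowest for Mvd, Mvk, Ebp, Dhcr7, Fdft1, Nsdhl, Hsd17b7 and Tm7sf2. It was also lowest for Acat1, Nr1h2, Abcg1, Elovl5 and Fasn. Yet it was highest for Sqle and Sc4mol, so it was not low across the whole pathway. CD11c- replicate 1 held the highest value of 9 members and the lowest of 6. Such counts were not made over all tested genes, so they cannot be read as particular to the lipid genes. CD11c+ replicate 1 also had the fewest gene reads and detected genes of all libraries. Among tested members the median coefficient of variation between replicates was 22.3% in CD11c+ and 16.5% in CD11c- cells. Over whole libraries, pairs of replicates differed by a chi-square per degree of freedom of 18.2 to 30.6 in CD11c+ cells. In CD11c- cells it was 9.43 to 20.6, so a wider spread in CD11c+ cells is not shown to be particular to the members.

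**Figure D2:**
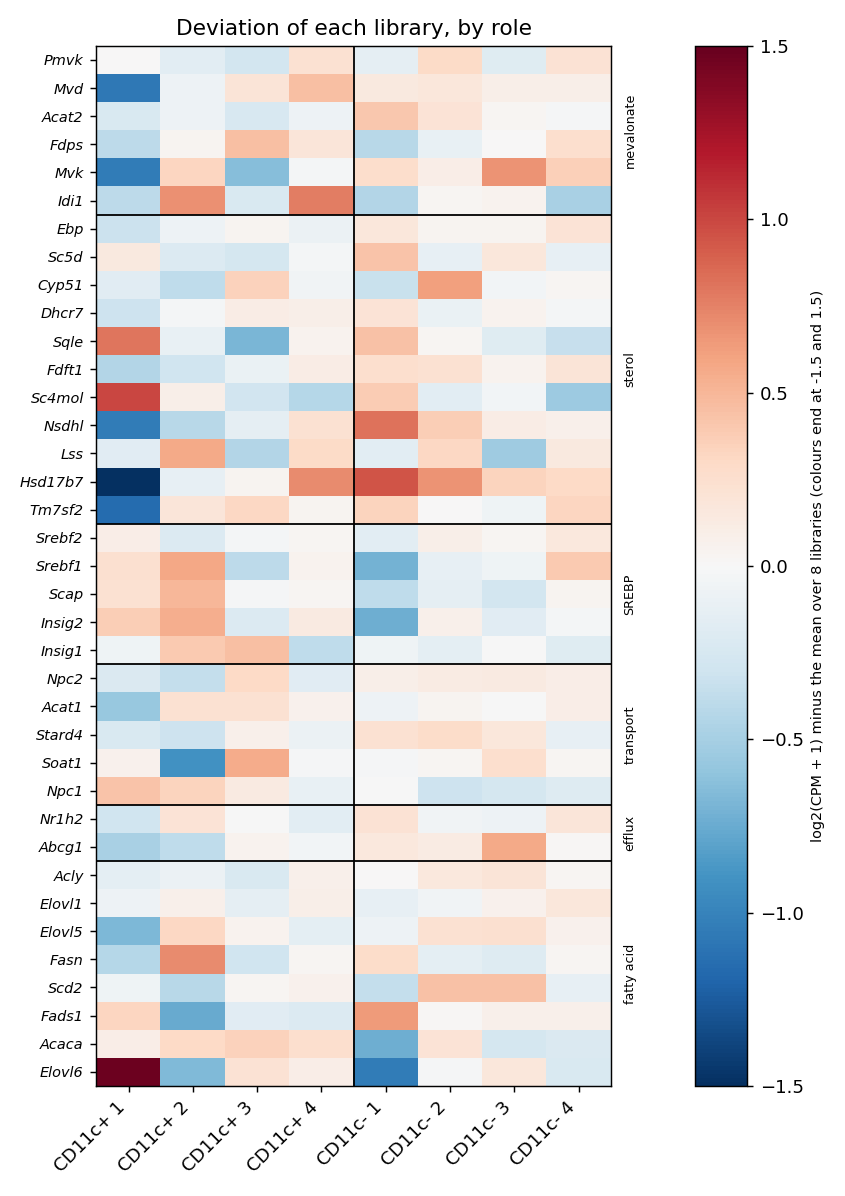
Deviation of each library (columns) from the mean of all 8, as log2(CPM + 1), for the 37 tested genes (rows) grouped by role, with red above and blue below the mean. CD11c+ replicate 1 shows both the lowest values of Mvd, Mvk, Ebp, Dhcr7, Fdft1, Nsdhl, Hsd17b7 and Tm7sf2 and high values of Sqle and Sc4mol.

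Promoter sequences are shown for Hmgcs1, the gene with no reads, and for Nsdhl and Ebp, the sterol enzymes given in detail above. They are RefSeq promoters on GRCm38.p6, 250 bases before to 50 after the start, read along the gene's strand, at chr13:119690101-119690400 (plus strand) for Hmgcs1, chrX:72918271-72918570 (plus strand) for Nsdhl and chrX:8193463-8193762 (minus strand) for Ebp. Capitals mark matches, on either strand, to the sterol regulatory element TCACNCCAC bound by SREBP, to CCAAT, the box bound by NF-Y, and to GGGCGG, the GC box bound by Sp1.
Hmgcs1: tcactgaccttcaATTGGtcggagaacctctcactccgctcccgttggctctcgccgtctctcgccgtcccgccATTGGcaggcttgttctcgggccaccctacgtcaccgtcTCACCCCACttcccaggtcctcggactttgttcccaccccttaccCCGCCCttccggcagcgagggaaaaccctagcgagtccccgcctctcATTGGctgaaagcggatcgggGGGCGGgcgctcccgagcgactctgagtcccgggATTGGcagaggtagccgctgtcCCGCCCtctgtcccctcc
Nsdhl: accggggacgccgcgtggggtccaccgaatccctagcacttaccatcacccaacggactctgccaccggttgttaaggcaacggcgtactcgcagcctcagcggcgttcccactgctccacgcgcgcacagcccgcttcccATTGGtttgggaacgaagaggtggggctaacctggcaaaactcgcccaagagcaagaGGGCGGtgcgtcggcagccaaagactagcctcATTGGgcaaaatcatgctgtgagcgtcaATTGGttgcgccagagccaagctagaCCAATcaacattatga
Ebp: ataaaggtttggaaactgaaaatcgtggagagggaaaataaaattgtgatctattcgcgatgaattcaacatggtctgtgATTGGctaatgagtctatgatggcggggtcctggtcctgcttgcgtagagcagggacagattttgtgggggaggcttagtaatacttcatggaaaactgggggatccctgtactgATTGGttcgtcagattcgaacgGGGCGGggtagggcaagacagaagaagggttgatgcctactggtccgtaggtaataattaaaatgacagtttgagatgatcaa
In the Hmgcs1 promoter there were 1 sterol element, 4 CCAAT boxes and 3 GC boxes, in that of Nsdhl 4 CCAAT boxes and 1 GC box, and in that of Ebp 2 CCAAT boxes and 1 GC box. The Hmgcs1 element, 137 bases before the start, was the only TCACNCCAC match among 32 members with a promoter in the table, where 1.44% of all 27025 genes there have one. No promoter was available for Sqle, Fdft1, Fdps, Npc1, Stard4, Acat1, Abcg1, Scd1, Scd2 and Fads1. Among tested genes with a promoter, TCACNCCAC matched 0 of 28 members and 1.39% of all 7247. The classic form of this element, of 10 bases, matched no member promoter and 0.0999% of all genes, and the LXR motif DR4, a spaced direct repeat of AGGTCA, matched no member promoter and 0.0148% of all genes. CCAAT was found in 23 of 28 tested members with a promoter (82.1%), beside 43.8% of 7247 tested genes, and GGGCGG in 22 of 28 (78.6%), beside 70.3%. A match is a description of the letters and not of binding, and a missing match says only that these letters are not in this window.

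Among the SREBP control genes, the log2 fold change was above 0 for 4 of 5 (median 0.24), and none passed the test. Scap, which encodes the sterol-sensing escort of SREBP, was at 92.1, 112, 77.9 and 80.4 CPM in CD11c+ replicates 1 to 4, against 60.2, 71.2, 64.8 and 80.9 CPM in CD11c- replicates 1 to 4. All 4 CD11c+ libraries exceeded the CD11c- mean, but 2 of them were below CD11c- replicate 4. The log2 fold change was 0.39 (SE 0.17, 95% interval 0.01 to 0.76, unadjusted p = 0.0465, edgeR adjusted p = 0.991), and 0.12 without the 3 libraries of fewest detected genes. Of the 50-base stretches of Scap, 9.96% occur in the gene model 5830462I19Rik. Srebf1, the SREBP gene tied most to fatty acid synthesis, was at 191, 243, 123 and 167 CPM in CD11c+ libraries, against 98.6, 149, 154 and 213 CPM in CD11c- libraries. Its libraries overlapped widely, and the log2 fold change of 0.24 (SE 0.24) became -0.25 without the same 3 libraries. Srebf2, the SREBP gene tied most to cholesterol synthesis, was at 189, 152, 172 and 179.6 CPM in CD11c+ libraries and 157, 187, 179.7 and 196 CPM in CD11c- libraries. That gene was among the steadiest members, with a log2 fold change of -0.06 and a 95% interval of -0.33 to 0.22. Insig2 averaged 26.4 ± 5.85 and 19.5 ± 4.61 CPM and Insig1, itself an SREBP target, 19.7 ± 5.37 and 16.7 ± 0.982 CPM, in CD11c+ and CD11c- cells (SD, n = 4 each).

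**Figure D3:**
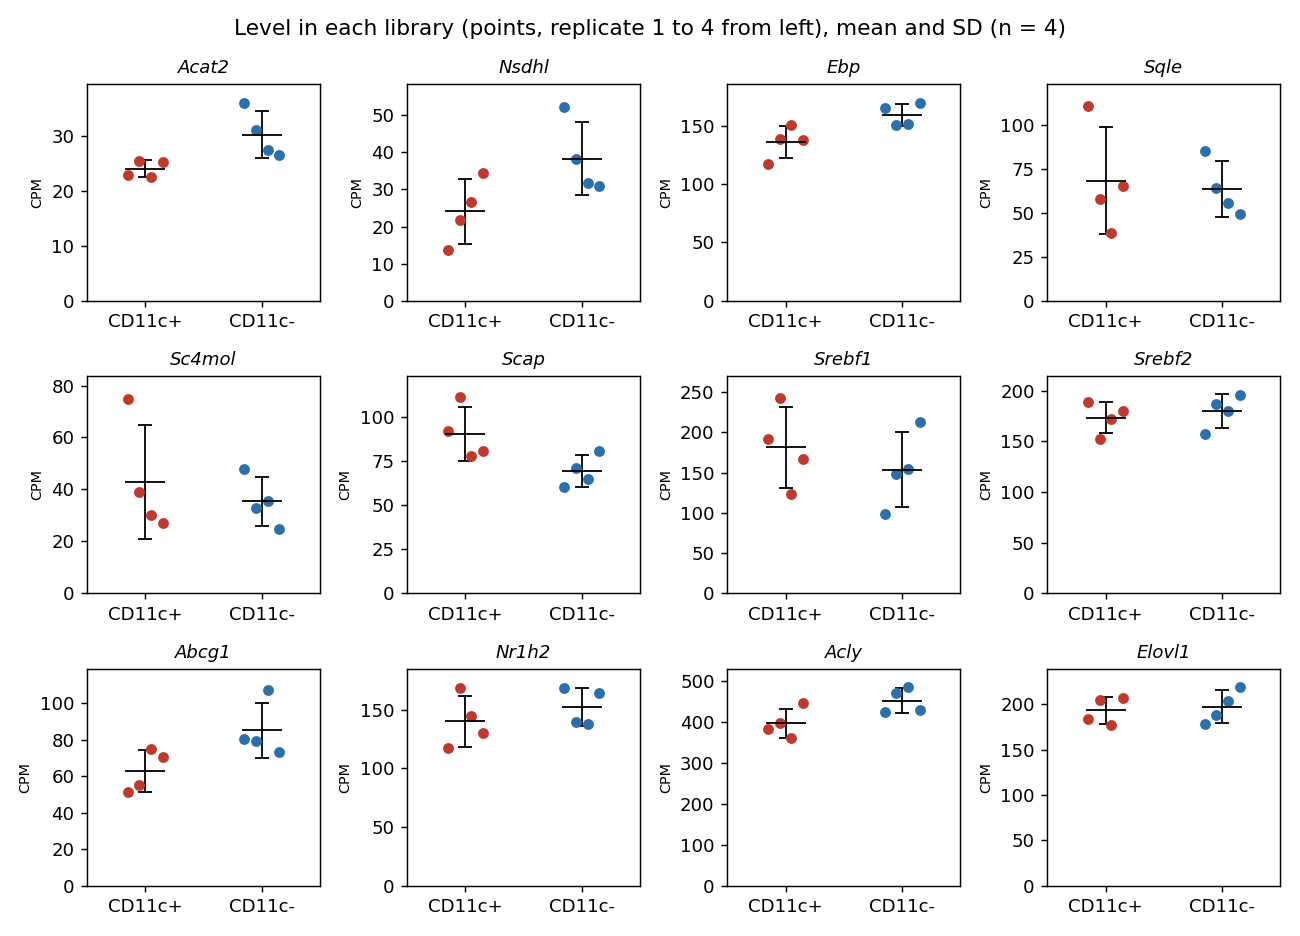
CPM of 12 members in each library, CD11c+ at left (red) and CD11c- at right (blue), with points for replicates 1 to 4 from left, the mean (line) and the SD (bars, n = 4). Acat2 and Ebp do not overlap between subsets, and Sqle and Sc4mol are highest in replicate 1 of both.

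The list of transport and esterification genes gave no consistent direction, with 2 positive and 3 negative log2 fold changes of 5. That list also holds Acat1, a mitochondrial thiolase and not a transport or ester gene, which gave the smaller positive change. Npc1, which moves cholesterol out of lysosomes, was at 54.6, 51.2, 44.5 and 37.5 CPM in CD11c+ libraries, against 40.2, 32.4, 33.6 and 35.4 CPM in CD11c- libraries. Every CD11c+ library was above the CD11c- mean, and 1 lay below the highest CD11c- library (log2 fold change 0.41, SE 0.20, edgeR adjusted p = 0.991). Npc2, its soluble partner, was at 252, 227, 361 and 261 CPM in CD11c+ libraries, against 309.9 to 320.3 CPM in CD11c- libraries. The CD11c- libraries were nearly level, while CD11c+ replicate 3 alone was above them, and the log2 fold change was -0.20 (SE 0.14), and -0.36 without that replicate. That library also had the highest sums of Kupffer cell and monocyte genes (295 CPM) and of neutrophil genes (308 CPM). The part of such cells in its Npc2 level was not tested. Stard4, a sterol carrier and SREBP target, averaged 52.7 ± 6.28 and 64.1 ± 7.59 CPM, and Soat1, which esterifies cholesterol for storage, 51.3 ± 19.8 and 53.9 ± 4.81 CPM, in CD11c+ and CD11c- cells. Acat1, the mitochondrial thiolase, was at 59.9, 105, 105 and 93.2 CPM in CD11c+ libraries, against 84.5 to 95.7 CPM in CD11c- libraries, with a log2 fold change of 0.0049 (SE 0.19).

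Of the export genes, Abcg1 had the smallest unadjusted p of all members. Abcg1, which passes cholesterol to lipoprotein particles, was at 51.3, 55.2, 75.0 and 70.3 CPM in CD11c+ replicates 1 to 4, against 80.6, 79.1, 107 and 73.3 CPM in CD11c- replicates 1 to 4. All 4 CD11c+ libraries were below the CD11c- mean, and only CD11c+ replicate 3 exceeded the lowest CD11c- library. The log2 fold change was -0.43 (SE 0.19, 95% interval -0.85 to -0.02, unadjusted p = 0.0413, edgeR adjusted p = 0.991), and -0.26 without the 3 libraries of fewest detected genes. Nr1h2, which encodes LXRβ, was at 118, 168, 145 and 129.9 CPM in CD11c+ libraries and 169, 139.8, 138 and 164 CPM in CD11c- libraries, with overlap and a log2 fold change of -0.12 (SE 0.15). Nr1h3, which encodes LXRα and is best known from macrophages and liver, had 0, 0, 0 and 1 reads in CD11c+ libraries, against 0, 7, 9 and 9 reads in CD11c- libraries. Abca1 had no read in 7 libraries and 5 reads in CD11c- replicate 4. Both were too low to be tested.

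No fatty acid gene passed the test, with 5 negative and 3 positive log2 fold changes of 8 tested. Acly, which makes cytosolic acetyl-CoA from citrate, was at 382, 396, 361 and 447 CPM in CD11c+ replicates 1 to 4, against 423, 470.3, 485 and 431 CPM in CD11c- replicates 1 to 4. Each CD11c+ library was below the CD11c- mean, with overlap through CD11c+ replicate 4 (log2 fold change -0.19, SE 0.10, edgeR adjusted p = 0.991). Elovl1, which lengthens very long saturated chains, was at 184, 205, 177 and 207 CPM in CD11c+ libraries and 178, 189, 204 and 219.7 CPM in CD11c- libraries (log2 fold change -0.03, 95% interval -0.29 to 0.23). Elovl5, an elongase of polyunsaturated chains, averaged 177 ± 47.8 and 202 ± 21.1 CPM in CD11c+ and CD11c- cells. Fasn, the fatty acid synthase, averaged 143 ± 55.2 and 137 ± 20.9 CPM, with CD11c+ replicate 2 at 222 CPM, the highest library. Acaca, the carboxylase that commits acetyl-CoA to fatty acids, was at 8.98 to 10.8 CPM in CD11c+ and 4.63 to 9.79 CPM in CD11c- libraries (log2 fold change 0.51, SE 0.42). Elovl6, which lengthens palmitate, had its highest value of 21.7 CPM in CD11c+ replicate 1 and lay between 2.97 and 8.54 CPM in the other libraries.

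The desaturases were represented by Scd2 and Fads1, while Scd1 and Fads2 were near 0. Scd2, a stearoyl-CoA desaturase of non-hepatic tissues, averaged 109 ± 15.7 CPM in CD11c+ and 128 ± 34.7 CPM in CD11c- cells (log2 fold change -0.23, SE 0.20). Its paralog Scd1, abundant in mouse liver, had 1, 1, 0 and 23 reads in CD11c+ libraries, against 0, 20, 3 and 11 reads in CD11c- libraries. The 17 hepatocyte genes summed to 0.195 to 41.6 CPM in CD11c+ and 2.04 to 50.5 CPM in CD11c- libraries, and 6 had the higher mean in CD11c+. Whether hepatocyte RNA gave the Scd1 reads was not tested. Fads1, the delta-5 desaturase, averaged 31.2 ± 9.64 and 40.9 ± 9.36 CPM in CD11c+ and CD11c- cells. Fads2, the delta-6 desaturase, had 21, 0, 0 and 2 reads in CD11c+ libraries and 0, 5, 0 and 6 reads in CD11c- libraries.

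Summed over all members, lipid gene transcripts took 2809, 3092, 2978 and 3041 CPM in CD11c+ libraries, against 3073, 3232, 3213 and 3199 CPM in CD11c- libraries. The enzymes from acetyl-CoA to cholesterol summed to 696 ± 33.7 CPM in CD11c+ and 769 ± 48.8 CPM in CD11c- cells (SD, n = 4 each), and the fatty acid genes to 1073 ± 96.7 and 1172 ± 65.3 CPM. A score for each library, the mean of log2(CPM + 1) over the 28 sterol and fatty acid synthesis genes, was 4.58, 4.73, 4.67 and 4.93 in CD11c+ libraries, against 4.81, 4.96, 4.81 and 4.85 in CD11c- libraries. The CD11c+ mean was 0.13 below the CD11c- mean, with 3 CD11c+ libraries under the whole CD11c- range and replicate 4 inside it. The sterol part differed by -0.20 and the fatty acid part by -0.01, on the log2 scale, while mean summed CPM were lower in CD11c+ cells for both. Over all alternatives the sterol difference ran from -0.28 to -0.060 and the fatty acid difference from -0.13 to 0.050. Hmgcs1 enters the sterol part at 0, and Scd1 and Fads2 enter the fatty acid part near 0. Without CD11c+ replicate 1 the sterol difference was -0.088 and the synthesis difference -0.082, and without CD11c+ replicate 4 the synthesis difference was -0.21. The efflux score over Abca1, Abcg1, Nr1h2 and Nr1h3 was 3.15, 3.30, 3.36 and 3.35 in CD11c+ libraries and 3.44, 3.61, 3.83 and 3.97 in CD11c- libraries, a difference of -0.42 with no overlap. Nr1h3 and Abca1 enter it with at most 9 reads a library, and over Abcg1 and Nr1h2 alone it was -0.28. Synthesis minus efflux was 1.44 ± 0.111 in CD11c+ and 1.15 ± 0.248 in CD11c- cells (SD, n = 4 each), a difference of 0.29, while the synthesis score itself was lower in CD11c+ cells. It was 0.14 over tested members alone and 0.11 from summed CPM. These scores were built from chosen members and carry no test.

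**Figure D4:**
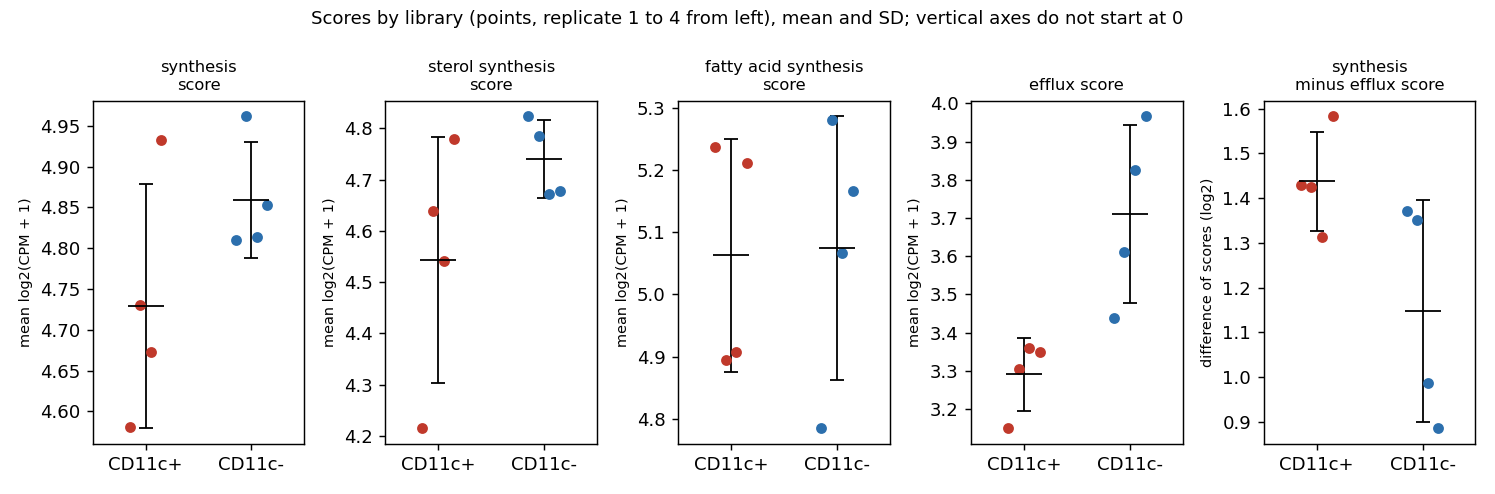
Score of each library, CD11c+ at left (red) and CD11c- at right (blue), for synthesis, its sterol and fatty acid parts, efflux and their difference, in mean log2(CPM + 1), with points for replicates 1 to 4 from left, the mean (line) and the SD (bars, n = 4). The efflux scores of CD11c+ libraries (3.15 to 3.36) lie below those of CD11c- libraries (3.44 to 3.97), and the vertical axes do not start at 0.

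No other gene of these pathways passed the test either. Of 64 listed genes, 62 were found and 47 were tested, and 0 had an adjusted p under 0.05 by edgeR. Their median log2 fold change was -0.02, with 22 above and 25 below 0. By list, 8 were above and 11 below 0 for other sterol genes, and 7 and 12 for other fatty acid genes. For other genes tied to LXR, 7 were above and 2 below 0 of 9 tested (median 0.21). Both tested members of the efflux list were below 0, so the LXR side had no single direction. Of the 47 genes, 1 had an unadjusted p under 0.05 by edgeR, beside 4.70% of all tested genes. It was Agpat3, an acyltransferase of phospholipid synthesis, at 253, 226, 284 and 238 CPM in CD11c+ libraries, against 278, 372, 312 and 339 CPM in CD11c- libraries, where only CD11c+ replicate 3 reached into the CD11c- range (log2 fold change -0.38, SE 0.12, edgeR adjusted p = 0.945). Of each list the gene with the highest level was Lbr, the lamin B receptor and alternative sterol C14 reductase (827 ± 69.2 and 874 ± 55.3 CPM), Ncor1, a corepressor of nuclear receptors (136 ± 35.7 and 118 ± 2.79 CPM), and Acsl5, an acyl-CoA synthetase (438 ± 55.5 and 443 ± 28.2 CPM), in CD11c+ and CD11c- cells (SD, n = 4 each). None of the 3 passed the test.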

How the data were processed

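Single 50 bp reads of SMART-seq2 and Nextera XT libraries were made, per the labels' protocols, and bcl2fastq, TopHat2 2.0.8b and HTSeq with build mm9 are named in the submitters' processing notes. Gene annotation and strand setting: not given in the sources used here, so reads of overlapping or antisense genes may be mixed. For each library the authors deposited whole-number counts by gene symbol. The 5 summary rows entered neither library sizes nor tests. No gene was assigned to 65.1% ± 1.66 (SD, n = 8) of reads with a unique place, and rows for non-unique alignments held 52.0% ± 1.07 of all entries.

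The subsets were compared by edgeR 4.0.16 under R 4.3.3, with filterByExpr, TMM, glmQLFit and glmQLFTest and group as the only term. Fold changes are CD11c+ over CD11c-, and p-values were adjusted over all 10073 tested genes by Benjamini-Hochberg, with a threshold of 0.05. SE is the log2 fold change divided by the root of F, and 95% intervals use the test's degrees of freedom. CPM use the library sizes times TMM factors. The floor of 3 reads covers counting error only, while the 95% intervals also carry the spread between libraries. No pair of replicates differed by read sampling alone (chi-square per degree of freedom of at least 9.43). The steps were tested on simulated data. Alternatives were RLE factors, no TMM factors, other filters and pseudocounts, a replicate block, DESeq2 1.42.0, limma 3.58.1 voom with quality weights, edgeR with legacy=FALSE, a threshold of 0.01, and libraries left out.

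Values per library are given for members with an adjusted or unadjusted p under 0.05, members with no overlap between subsets and the 2 of highest CPM in each role. Of other members, Mvk, Fdft1, Acaca, Sqle, Sc4mol, Npc1, Elovl6 and the 5 untested ones were described further after their values were seen. Other pathway genes are named by unadjusted p under 0.05 or highest CPM in their list. Members and lists were chosen with earlier results of these data known. From the marker sums Cst3, Itgax, Cd68, Ly6c2, Ccr2 and Pecam1, which T cells express, were left out.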

Additional observations from a re-analysis of the deposited data

Results flagged for a closer look

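Among 94 sets of 4 libraries (42 genes and 5 scores in both subsets), 6 had a library standing far from the other 3, where chance flags about 1 in 20 such sets. Soat1 was at 61.0 CPM in CD11c- replicate 3, above 50.4 to 52.1 CPM in the other CD11c- libraries. Fads1 was at 54.9 CPM in CD11c- replicate 1, above 35.1 to 36.8 CPM in the others. The remaining 4 concern genes near 0 reads, with Scd1 at 3.58 CPM and Nr1h3 at 0.156 CPM in CD11c+ replicate 4, Fads2 at 4.10 CPM in CD11c+ replicate 1 and Abca1 at 0.879 CPM in CD11c- replicate 4.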

How the results depend on the processing

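The count of members that passed stayed at 0 higher and 0 lower in all 18 alternatives, and the smallest adjusted p of any member was 0.739 (Npc2 without CD11c+ replicate 3). Members with an unadjusted p under 0.05 numbered 0 to 6, with 6 without CD11c+ replicate 4. The median log2 fold change of the members stayed between -0.15 and -0.07. All genes called were 5, and 12 with no filter, 8 with a filter of 5 CPM in 4 libraries, 13 with the replicate block, 29 by DESeq2, 19 by limma voom, 11 with legacy=FALSE, 1 at a threshold of 0.01, 11 without CD11c+ replicates 1 and 2 and CD11c- replicate 1, which had the fewest detected genes, and 1 to 5 without 1 library. The efflux score difference of -0.42 became -0.21 with a pseudocount of 5 and -0.24 from summed CPM, and ran from -0.52 to -0.34 without 1 library. Other score differences moved by less than the SD between replicates. Without 1 library, however, the sterol difference ran from -0.28 (without CD11c+ replicate 4) to -0.088 (without CD11c+ replicate 1), synthesis from -0.21 to -0.082 (without the same libraries), fatty acid from -0.12 to 0.050, across 0, and synthesis minus efflux from 0.20 to 0.36. Srebf1 reversed, with a log2 fold change of 0.24 that became -0.25 without the 3 libraries of fewest detected genes. Mvd turned to 0.042 by limma voom and 0.21 without those 3. Acat1 turned to -0.0091 with no filter and -0.026 with the replicate block. Without 1 library, Mvd ran from -0.37 to 0.080, Acat1 from -0.081 to 0.16 and Elovl1 from -0.086 to 0.013. The cause was not tested. No label says what a replicate number stands for. Deviations of same-numbered libraries correlated at 0.0964, 0.167, 0.119 and 0.1897 over all tested genes and at -0.221 to -0.0172 over the members. Over all tested genes every library was closest to its own number, a hint of pairing from the data and not from the design. With the replicate block the unadjusted p by edgeR was 0.0718 for Nsdhl, 0.0531 for Scap and 0.0282 for Abcg1. Counting error alone gives Idi1, with 10 to 36 reads a library, a coefficient of variation of 23.4% at its mean over all 8 libraries. The spread between its replicates was 50.5% in CD11c+ cells. In CD11c- cells it was 28.2%, near counting error, with 10, 21, 16 and 10 reads.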
